A study of Mus musculus with 4 samples.

Results

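Germ cells that carried *Stra8* mRNA were examined, because *Stra8* is induced as spermatogonia leave the mitotic cycle and begin meiosis. Retinoic acid acts through RAR and RXR receptors and induces *Stra8*, and STRA8 works with MEIOSIN (listed here as *Gm4969*) to turn on genes of the meiotic programme. Preleptotene is the stage of the last DNA replication before the meiotic chromosome axis forms, when the cohesin subunit REC8 is loaded. MEIOC and YTHDC2 are RNA regulators needed to hold cells in meiosis once they have entered it. In the mouse testis, the first wave of these cells arises synchronously in the early postnatal period, and further waves follow it.

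A cell was included when it had 1000 to 4500 detected genes, at least 2 UMIs (unique molecular identifiers, which mark single captured RNA molecules) of *Ddx4* and *Dazl* together, and at least 2 UMIs of *Stra8*. It also had to show at least 2 of 6 entry markers (*Meioc*, *M1ap*, *Prss50*, *Ccne2*, *Elavl2* and *Hist1h2ba*) and at most 2 of 6 later markers (*Dmc1*, *Terb1*, *Zcwpw1*, *Inca1*, *Rad51ap2* and *Spdya*). The rule found 1026 cells of 46001 barcodes, and these are called *Stra8*-gated germ cells. The control libraries held 350 and 156 of them and the *Sox17*-cKO libraries 331 and 189. The members were chosen by the measured UMIs of these 15 genes, whose values are descriptions and were not tested.

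The cells came from the proximal part of the P14 C57BL/6 mouse testis, with 2 libraries per genotype, each pooled from 3 pups. The sample records give both groups the SF1Cre transgene and give the *Sox17*-cKO mice floxed *Sox17* alleles in addition, whereas the methods describe the controls as *Sox17* flox/flox littermates without Cre. The SF1 (*Nr5a1*) promoter drives Cre in the somatic lineage of the gonad, to which germ cells do not belong. *Sox17* itself had a UMI in 0 of 350, 2 of 156, 0 of 331 and 0 of 189 gated cells with both controls named first, the order used for all values by library. These cells thus give no check of the deletion.

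A gated cell had a median of 10514, 9163, 7574 and 8881 UMIs, and the cells of a library summed to between 1459112 and 3494421 UMIs. Mitochondrial genes took a median of 6.68% to 8.77% of them. The replicate number coincided with the Cell Ranger version, 6.0.2 in the libraries numbered 1 and 6.1.2 in those numbered 2. The 190 barcode sequences found in more than 1 library included 0 of the gated cells. Somatic RNA was present in the gated cells and differed by library: the 11 Sertoli cell markers summed to 1761, 300.2, 2274 and 352.7 CPM (UMIs per 1000000 UMIs of the group), and all 11 had UMIs. The 9 stromal markers summed to 376.3, 392.7, 86.05 and 299.2 CPM. Leydig cell, macrophage, endothelial and rete testis markers each summed to under 10 CPM in every library. The high Sertoli sums lay in the libraries numbered 1, and the low stromal sum was that of *Sox17*-cKO 1.

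Sequence upstream of the entry genes is shown because the receptors that induce *Stra8* bind DNA through the half-site AGGTCA, and because CNCCTCAG is the motif associated with STRA8 and MEIOSIN. Both were searched on both strands in the 250 bases before the RefSeq start (GRCm38.p6). A match to one cannot contain a match to the other. In the *Stra8* promoter (plus strand), AGGTCA occurred at 2 places, beginning 194 and 38 bases before the start. They are shown in capitals in windows of 30 bases at chr6:34920742-34920771 and chr6:34920898-34920927, which an earlier-starting GENCODE vM21 transcript places in an exon, in the 5′ UTR:
Stra8 distal window: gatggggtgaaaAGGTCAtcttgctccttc
Stra8 proximal window: gcctggggtaccAGGTCAgttttttacctg
The *Gm4969* promoter (RefSeq symbol *Bhmg1*) held 1 match to CNCCTCAG, 44 bases before the start and shown in capitals. The stretch printed, chr7:19118369-19118594 on the minus strand, ends at the base before the GENCODE vM21 gene begins:
Gm4969 promoter: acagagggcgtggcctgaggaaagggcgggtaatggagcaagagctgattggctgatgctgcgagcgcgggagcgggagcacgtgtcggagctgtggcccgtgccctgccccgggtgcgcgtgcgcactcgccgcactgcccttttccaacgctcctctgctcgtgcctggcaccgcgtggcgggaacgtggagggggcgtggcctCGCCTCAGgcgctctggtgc
Of all 32851 promoters, 14% held AGGTCA and 6.42% held CNCCTCAG. Neither was found in the 250 bases before *Rec8*, which says only that these letters are absent from that window.

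The gate was first set against its neighbours. The stage before was represented by 621 germ cells with 0 *Stra8* UMIs, at least 1 UMI of *Dmrtb1* and *Esx1* together and at most 1 later marker, called late differentiating spermatogonia. The stage after was represented by 2071 germ cells with at least 4 of the 6 later markers, called leptotene/zygotene cells. No cell fell into more than 1 of these gates (0 of 3718). *Dmrtb1* was nevertheless detected in 28.4% to 48.1% of the gated cells per library and *Esx1* in 39.3% to 69.2%. Late differentiating spermatogonia had a median of 7207, 8293, 5961 and 7707 UMIs, fewer than the gated cells in each library. Leptotene/zygotene cells had 8095.5, 8643, 7580.5 and 7567. A limit of 0 *Stra8* UMIs is met more readily at low depth, and the part of depth was not tested.

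*Stra8* was at 587, 506, 539 and 474 CPM in the gated cells and at 433, 639, 706 and 619 CPM in leptotene/zygotene cells, where *Stra8* was not a criterion. It was thus higher in the gated cells in 1 of 4 libraries, control 1. *Meioc* was at 155, 239, 208 and 146 CPM in late differentiating spermatogonia, at 183, 341, 321 and 223 CPM in the gated cells and at 491, 511, 658 and 484 CPM in leptotene/zygotene cells. *Prss50*, a testis serine protease gene, was at 100, 475, 200 and 444 CPM in the gated cells and at 373, 1051, 539 and 1208 CPM in leptotene/zygotene cells. *M1ap*, a gene needed for meiosis I, was likewise lower in the gated cells than in leptotene/zygotene cells in 4 of 4 libraries. So was *Ccne2*, which encodes cyclin E2. *Elavl2* had a mean of 283 CPM in the gated cells, beside 238 CPM in the stage before and 262 CPM in the stage after. It was above each of these in 3 of 4 libraries. *Hist1h2ba* had a mean of 65.7 CPM in the gated cells, 65.3 CPM in the stage before and 226 CPM in the stage after.

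*Stra8*, *Meioc*, *M1ap*, *Prss50* and *Ccne2* are criteria of the rule. Their presence was set by the selection, and it cannot bear out the label of these cells as preleptotene. None of them had its highest level in the gated cells in all 4 libraries. Nor did *Gm4969*, which was not used by the gate and encodes MEIOSIN: it was at 13.4, 22.6, 24.1 and 22.8 CPM and at 56.1, 67.3, 89.0 and 73.6 CPM in leptotene/zygotene cells. The later markers ran from low to frequent in the gated cells. *Rad51ap2* was detected in 1.06% to 4.83% of them per library, *Dmc1*, the meiotic strand-exchange recombinase, in 32.6% to 38.6%, and *Zcwpw1*, a reader of PRDM9-marked histones, in 74.0% to 82.1%.

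**Figure D1:**
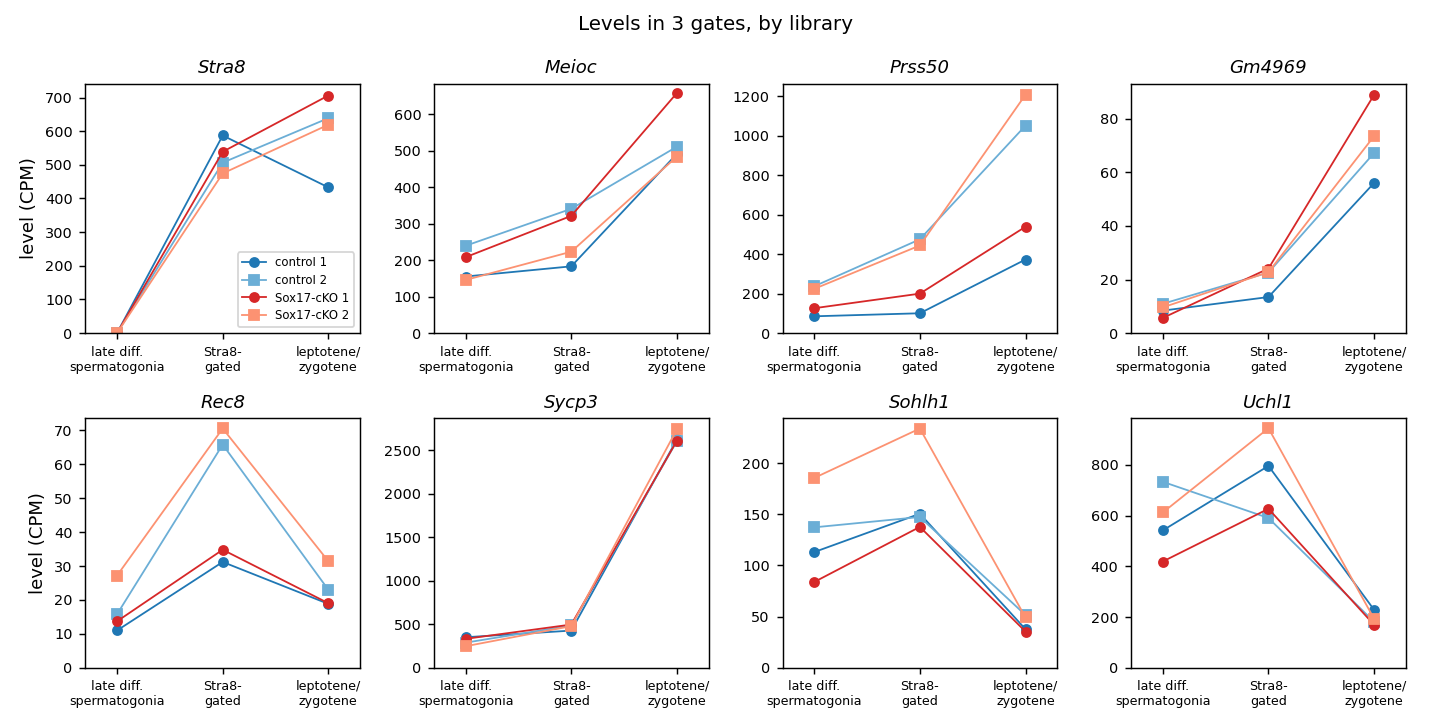
Level in CPM (y axis, linear, from 0) of 8 genes in late differentiating spermatogonia, *Stra8*-gated germ cells and leptotene/zygotene cells (x axis), with 1 line per library. Of the 3 gates, *Rec8* was highest in the gated cells in all 4 libraries, from 31.2 to 70.5 CPM, whereas *Meioc*, *Prss50*, *Gm4969* and *Sycp3* were highest in leptotene/zygotene cells.

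*Stra8* was not restricted to germ cells in the counts. At least 2 *Stra8* UMIs were found in 24.9%, 36.5%, 27.9% and 31.03% of germ barcodes and in 1.81%, 0.246%, 2.66% and 0.294% of other retained barcodes, at median depths of 6072 to 8895 and 3712 to 7390 UMIs. At least 1 UMI was found in up to 17.6% of the other barcodes, in *Sox17*-cKO 1. The threshold of 2 UMIs thus left a background that was higher in the libraries numbered 1.

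Cells just inside and just outside the limits on *Stra8*, later markers and entry markers were compared without a test. The limits on detected genes and on *Ddx4* and *Dazl* were not compared in this way. Without the upper limit of 4500 genes, 791, 439, 728 and 490 cells met the rest of the rule. With it, 350, 156, 331 and 189 did. The 323 members with exactly 2 *Stra8* UMIs had *Rec8* at 38.9 ± 16.9 CPM (SD, n = 4 libraries) and the 727 otherwise eligible cells with 1 UMI had it at 31.3 ± 16.7 CPM. The 560 members with 2 later markers had *Sycp3* at 501 ± 31.8 CPM, and the 407 cells with 3 had it at 672 ± 57.7 CPM. *Rec8* was at 34.8, 65.2, 38.2 and 74.2 CPM with 2 later markers and at 24.7, 68.2, 46.9 and 71.1 CPM with 3, so its level did not end at this limit. At the entry-marker limit, the 252 members with 2 markers had *Uchl1* at 1269 ± 350.1 CPM, and the 264 cells with 1 had it at 1333 ± 427 CPM.

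The gated cells were compared with late differentiating spermatogonia on UMIs summed per library and gate, with the library as a block, in edgeR's quasi-likelihood test (Benjamini-Hochberg adjustment, threshold 0.05). The 17 genes used by any gate were left out. Other meiotic genes vary together with the gate genes, so a difference in them between gates is not independent of how the cells were chosen. Of 9807 genes tested, 1187 passed (12.1%), with 285 higher in the gated cells (2.91%) and 902 lower (9.2%). Without *Sox17*-cKO 1, 571 passed, 49 of them higher. Somatic RNA differed between these gates. Sertoli markers summed to 3504, 1807, 4935 and 4229 CPM in late differentiating spermatogonia and stromal markers to 1511, 1302, 1812 and 3048 CPM, each above the gated cells in all 4 libraries. Their part in the result was not tested. After barcodes with 10 or more somatic marker UMIs were left out, 149 of 8669 genes passed (1.72%), 90 higher (1.04%) and 59 lower (0.681%), and 83 of them were among the 1187. Calls thus became fewer over all genes, and list counts under this restriction are to be read against these shares. The restriction took out 129, 27, 126 and 33 gated cells and 94, 19, 83 and 22 late differentiating spermatogonia. It also took out 344, 119, 350 and 74 leptotene/zygotene cells. Lost calls can thus go with fewer cells and a changed balance of libraries as well as with less somatic RNA. These parts were not tested. Values under this restriction are given below as "with few somatic UMIs".

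*Rec8* had the smallest p among the higher genes. It was at 10.99, 15.8, 13.7 and 27.2 CPM in late differentiating spermatogonia and at 31.2, 65.8, 34.8 and 70.5 CPM in the gated cells. The groups did not overlap, and the libraries numbered 2 were the higher pair in both stages. The log2 fold change was 1.54 ± 0.17 (SE, edgeR adjusted p = 0.00027), and 1.30 ± 0.21 with few somatic UMIs (edgeR adjusted p = 0.00023). *Sohlh2*, a transcription factor of differentiating spermatogonia, was at 25.6, 18.2, 18.5 and 12.8 CPM and rose to 48.9, 32.9, 46.7 and 37.0 CPM, a log2 fold change of 1.09 ± 0.17 (edgeR adjusted p = 0.0015). Here too every gated value lay above every value of the stage before.

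The other genes with the smallest p among those higher in 4 of 4 libraries were *Mageb4* (log2 fold change 0.93), *Tex101* (0.64), *Ly6k* (0.93), *Tslrn1* (1.37), *Kif26a* (1.75), *Snx6* (0.56), *Sycp3* (0.60) and *Zswim7* (0.76). *Tex101* and *Ly6k* encode germ cell surface proteins, *Sycp3* encodes a component of the chromosome axis, and *Zswim7* takes part in homologous recombination. All 8, *Rec8* and *Sohlh2* stayed past the threshold with few somatic UMIs, with edgeR adjusted p from 5.4e-05 to 0.020. The corresponding lower genes were *Mgp*, *Junb*, *Cebpd*, *Rps4x*, *Jun*, *Col4a4*, *Fos*, *Myh11*, *Zfp36* and *Myl9*. *Fos* alone of these passed with few somatic UMIs (log2 fold change -0.73 ± 0.20, edgeR adjusted p = 0.044). *Mgp*, a matrix protein gene, went from 166, 158, 252 and 361 CPM to 29.5, 39.1, 32.5 and 52.9 CPM, and its log2 fold change of -2.61 ± 0.12 became -0.21 ± 0.28 with few somatic UMIs. *Col4a4*, *Myh11* and *Myl9* no longer had enough UMIs to be tested.

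With few somatic UMIs, the lower genes were led by *Mki67*, the proliferation marker (log2 fold change -0.75 ± 0.08, edgeR adjusted p = 2.3e-07). It was lower in 4 of 4 libraries before this restriction as well, with a log2 fold change of -0.39 ± 0.08. *H1fx*, a linker histone gene, was at -0.67 ± 0.09, and *Ccnd1*, which encodes cyclin D1, at -0.40 ± 0.08. Among the higher genes, *Ccnd2*, which encodes cyclin D2, was at 1.12 ± 0.19. *H1fx*, *Ccnd1* and *Ccnd2* did not pass when all gated cells were used, and they were named after their values were seen.

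Against leptotene/zygotene cells the contrast was wide. Of 11003 genes tested, 7156 passed (65%), with 3544 higher in the gated cells (32.2%) and 3612 lower (32.8%). Counts for a gene list below must be read against these shares. The higher genes with the smallest p and 4 of 4 libraries in agreement were *Ppp1r14b*, *Cenpa*, *Mt2*, *Mt1*, *Crabp1*, *Mif*, *Ccnd1*, *Uchl1*, *Rcc2* and *Hsp90ab1*, with log2 fold changes of 1.24 to 2.21. They hold the centromeric histone *Cenpa*, a pair of metallothioneins and *Uchl1*, an ubiquitin hydrolase gene of spermatogonia. *Uchl1* was at 796, 591, 627 and 945 CPM in the gated cells and at 228, 181, 169 and 193 CPM afterwards. The lower genes were *Sycp3*, *Sycp2*, *H2-K1*, *Pbx3*, *Hfm1*, *Meiob*, *Fbxo47*, *Iqcb1*, *Atr* and *Pigp*. *Sycp3* was at 428, 487, 498 and 479 CPM in the gated cells and at 2627, 2609, 2612 and 2744 CPM in leptotene/zygotene cells, a log2 fold change of -2.55 ± 0.06 (edgeR adjusted p = 5.9e-15). *Meiob*, which acts on recombination intermediates with SPATA22, was at 2.06 to 4.59 CPM and rose to 137 to 227 CPM.

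Retinoic acid receptors are the input of the system. Against late differentiating spermatogonia, 0 of the 4 receptors tested passed, where 12.1% of all genes did, and 3 were higher and 1 lower than in leptotene/zygotene cells. *Rxra* was at 13.4, 11.7, 12.6 and 9.67 CPM in the gated cells and at 4.55, 2.34, 2.87 and 3.78 CPM in leptotene/zygotene cells, a log2 fold change of 1.75 ± 0.26. *Rarg* (0.92 ± 0.19) and *Rara* (0.64 ± 0.16) were higher as well, and *Rxrb* was lower (-0.34 ± 0.13). With few somatic UMIs, where 64.2% of all genes passed (32.9% higher and 31.3% lower), *Rarg* lost the call (0.49 ± 0.23, edgeR adjusted p = 0.063). *Rarb* and *Rxrg* were too low to be tested.

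Of the 15 genes of retinoic acid synthesis, storage, binding and breakdown, 8 were tested against the stage before, and 0 were higher and 2 lower. *Cyp26b1*, a retinoic acid hydroxylase gene, was at 18.8, 18.2, 25.8 and 40.0 CPM in late differentiating spermatogonia and at 6.30, 6.17, 4.21 and 9.10 CPM in the gated cells. Its log2 fold change was -1.98 ± 0.26 (edgeR adjusted p = 0.00053), but it could not be tested with few somatic UMIs. *Aldh1a1*, a retinaldehyde dehydrogenase gene, did not pass under that restriction (edgeR adjusted p = 0.85). *Crabp1*, which encodes a cytoplasmic retinoic acid binding protein, stood out against leptotene/zygotene cells. It was at 335, 303, 277 and 528 CPM in the gated cells and at 67.7, 80.5, 43.8 and 114 CPM afterwards, a log2 fold change of 2.21 ± 0.10 (edgeR adjusted p = 9.9e-12). *Aldh1a2* (-1.19 ± 0.13) and *Rdh10* (-1.12 ± 0.16), which act in retinoic acid synthesis, were lower in the gated cells. Of the 10 tested there, 2 were higher and 4 lower.

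Among regulators of meiotic entry, 3 of 12 tested were higher than in late differentiating spermatogonia and 0 lower. They were *Sohlh2*, *Gm4969* (1.20 ± 0.27, edgeR adjusted p = 0.013) and *Sohlh1* (0.38 ± 0.10, edgeR adjusted p = 0.034). *Gm4969* and *Sohlh1* lost the call with few somatic UMIs (edgeR adjusted p = 0.31 and 0.46). Against leptotene/zygotene cells, 4 of 13 were higher and 6 lower. *Dmrt1*, a transcription factor that restrains meiotic entry in spermatogonia, was at 212, 215, 202 and 263 CPM against 58.2, 65.8, 52.8 and 72.1 CPM, with a log2 fold change of 1.78 ± 0.09. *Sohlh1* was 1.87 ± 0.12 higher on the log2 scale. *Zfp541* (-2.61 ± 0.16), *Gm4969* (-1.88 ± 0.13) and *Ythdc2* (-1.27 ± 0.09) were lower. Genes of the spermatogonial side and of the meiotic side were thus both measured in the gated sums.

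Of the genes of meiotic cohesin and the chromosome axis, 4 of 8 were higher than in the stage before and 0 lower, and 1 of 8 was higher and 7 lower than in the stage after. The median log2 fold change was 0.49 and -2.25 in the 2 contrasts, beside 0.017 and -0.0043 over all genes tested. In cells with few somatic UMIs, 2 of 7 were higher than in the stage before (*Rec8* and *Sycp3*), with a median of 0.17, and *Smc1b* went from 0.39 ± 0.07 to 0.11 ± 0.07 (edgeR adjusted p = 0.52). *Rec8* was the exception in the second contrast (1.01 ± 0.14, edgeR adjusted p = 7.5e-06). Its cohesin partner *Smc1b* was at 677, 805, 752 and 784 CPM in the gated cells and at 1675, 2353, 2381 and 2321 CPM later. *Rad21l*, the other meiotic kleisin gene, was at 10.3, 6.85, 18.4 and 9.10 CPM and reached 50.3, 64.7, 102 and 47.4 CPM. The pair of kleisin genes thus ran in opposite directions between these stages.

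All 6 genes of the synaptonemal complex were lower than in leptotene/zygotene cells. Against late differentiating spermatogonia, 5 of 6 were higher (*Syce1* by 0.61 ± 0.11, *Syce2* by 0.41 ± 0.08 and *Tex12* by 0.55 ± 0.11 on the log2 scale), and with few somatic UMIs 1 of 6 passed, *Tex12*. Of the recombination genes, 5 of 21 were higher and 0 lower than in the stage before, and with few somatic UMIs 0 of 20 passed. Against leptotene/zygotene cells, 1 of 24 was higher and 18 lower. The gene for the break-forming enzyme, *Spo11*, was at 1.43, 1.37, 2.68 and 3.41 CPM in the gated cells and at 43.5, 49.4, 49.1 and 53.5 CPM afterwards. *Rec114*, which acts with it, went the other way, at 54.7, 130, 47.4 and 104.7 CPM and then 23.6, 63.9, 37.9 and 60.2 CPM (log2 fold change 0.78 ± 0.13, edgeR adjusted p = 4.6e-05). It too was higher in the libraries numbered 2. Of the telomere attachment genes 4 of 5 were lower than in leptotene/zygotene cells, among them *Ccdc155* (KASH5) at -2.47 ± 0.16.

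DNA replication and mitosis genes were counted against the stage before, where 2.91% of all genes were higher and 9.2% lower. Of 48 replication genes, 3 were higher (*Mcm5*, *Gmnn* and *Pole*, by 0.42 to 0.44 on the log2 scale) and 0 lower, and 0 of 24 mitosis genes were higher and 1, *Mki67*, lower. With few somatic UMIs, 0 of 48 were higher and 1 lower (*Pcna*), and 5 of the 24 mitosis genes were lower, where 0.681% of all genes were. The median log2 fold change of the mitosis genes was then -0.25, with 1 of 24 above 0, beside 0.00091 and 13 of 24 with all gated cells. Against leptotene/zygotene cells, 26 of 48 replication genes were higher and 12 lower. *Cdt1*, a licensing factor, was at 61.2, 50.7, 45.9 and 75.1 CPM and fell to 12.8, 15.3, 6.96 and 19.8 CPM. *Tyms*, which encodes thymidylate synthase, was 1.78 ± 0.12 higher in the gated cells. Of the mitosis genes 11 of 24 were higher, led by *Ube2c*, *Ccna2*, *Aurkb* and *Plk1* (1.65 to 2.301), and 8 were lower. The lower ones included *Bub1* (-1.79 ± 0.09) and *Top2a* (-1.18 ± 0.08). The median log2 fold change of the 24 was 0.17, with 16 above 0. With few somatic UMIs it was 0.35, with 13 higher and 8 lower. A change of the set was not tested.

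Of the histone genes, 8 of 16 replication-dependent histones and 7 of 11 variants were lower than in leptotene/zygotene cells, and 4 and 3 were higher. Of all genes, 32.8% were lower and 32.2% higher there. *Hist1h1t*, the testis linker histone gene, was at -2.85 ± 0.21, *Hist1h2aa* at -1.32 ± 0.08 and *Hist1h1e* at -1.56 ± 0.09, whereas *H3f3a* was at 0.90 ± 0.06. Most replication-dependent histone mRNAs lack a poly(A) tail, and a 3' capture of poly(A) RNA counts them only in part. Against the stage before, 0 of 15 and 0 of 10 were higher and 1 of each was lower. In cells with few somatic UMIs, 2 of 13 (*Hist1h2ap* and *Hist1h1a*) and 4 of 10 (*H1fx*, *H1f0*, *H2afj* and *H3f3b*) were lower, where 0.681% of all genes were.

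Of 21 spermatogonial genes, 16 were higher than in leptotene/zygotene cells and 3 lower. *Kit*, the receptor of differentiating spermatogonia, was at 205, 80.9, 172 and 120 CPM in the gated cells and at 49.9, 36.8, 62.0 and 47.1 CPM later. *Dnmt3b*, a DNA methyltransferase gene, was 2.305 ± 0.15 higher on the log2 scale. Against late differentiating spermatogonia, 4 of 20 were higher and 1 lower, where 2.91% of all genes were higher and 9.2% lower. With few somatic UMIs, 3 of 17 were higher (*Ccnd2*, *Tex101* and *Sall4*) and 1 lower (*Ccnd1*), where 1.04% and 0.681% of all genes were. Of the piRNA pathway, 4 of 18 were higher than in the stage before, and 1 of 16, *Gtsf1*, with few somatic UMIs. Against the stage after, 7 were higher, such as *Henmt1* (1.83 ± 0.18), and 10 lower, such as *Mybl1* (-3.92 ± 0.16), the transcription factor of pachytene piRNA genes. Of the 7 pachytene spermatocyte genes tested, 0 were higher and 5 lower than in leptotene/zygotene cells, such as *Hspa2* (-2.46 ± 0.16).

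Glycolysis genes and immediate early genes differed in their counts with few somatic UMIs. Of 16 glycolysis genes, 7 were lower than in late differentiating spermatogonia, but 0 of 11 were lower and 1 higher with few somatic UMIs. Of 13 immediate early and stress genes, 11 were lower, and 2 of 10 with few somatic UMIs. Against leptotene/zygotene cells, 7 of 17 glycolysis genes were higher and 4 lower, and 9 of 14 were higher and 2 lower with few somatic UMIs (median log2 fold change 0.22 and 0.93). With all gated cells *Gpi1* was at 1.44 ± 0.09 and *Gapdh* at 1.10 ± 0.09. Of the immediate early genes 3 of 13 were higher and 3 lower in that contrast.

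**Figure D2:**
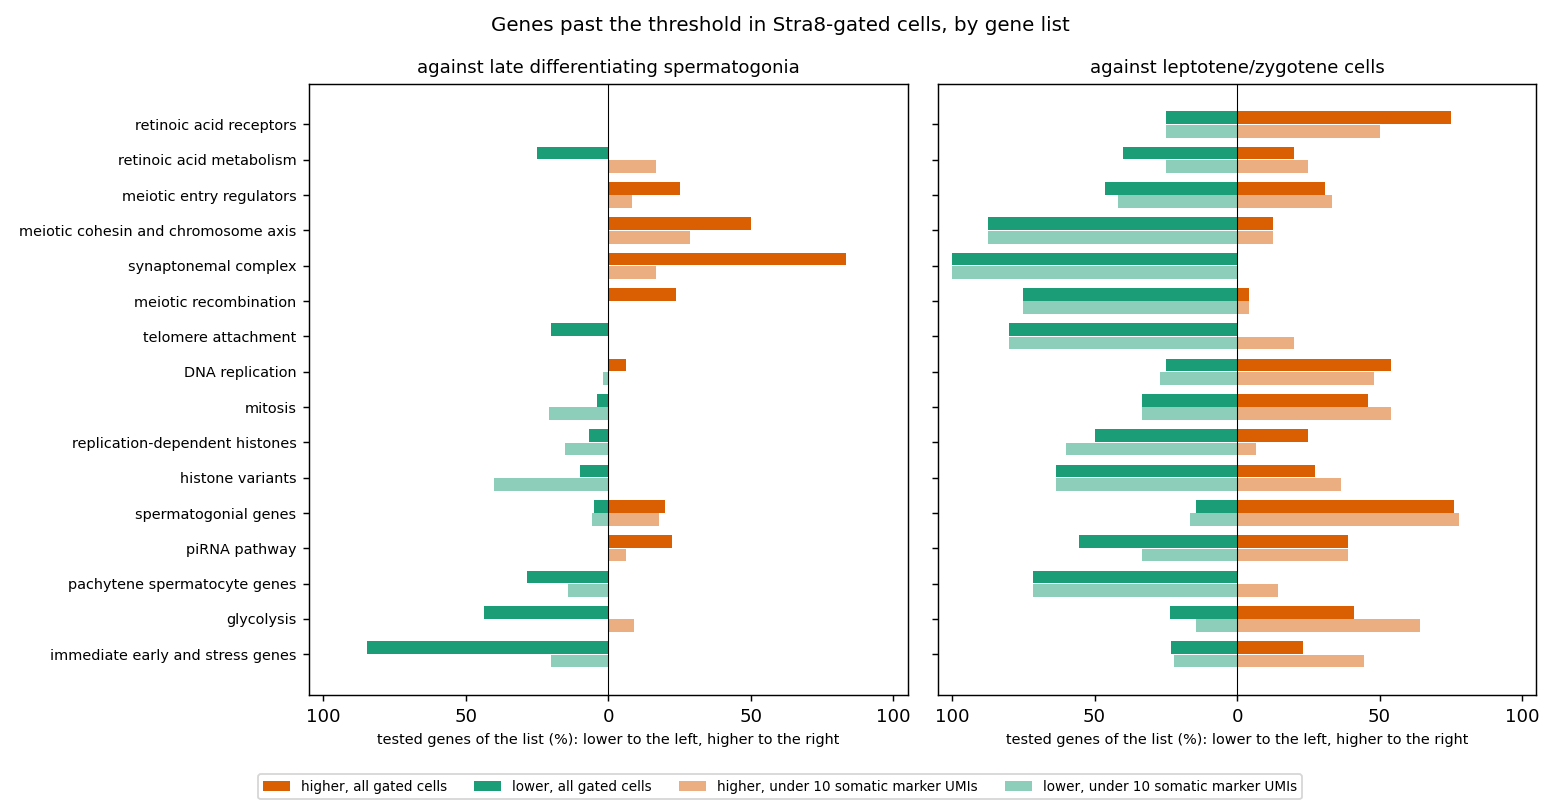
Percent of the tested genes of each list that were past the edgeR threshold in *Stra8*-gated cells against the stage before (left panel) and the stage after (right panel), with lower genes to the left of 0 and higher genes to the right. Dark bars use all gated cells and light bars those under 10 somatic marker UMIs; against the stage before, synaptonemal complex genes went from 5 to 1 of 6 higher and immediate early genes from 11 of 13 to 2 of 10 lower.

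A small set of genes was higher in the gated cells than in both neighbours. Of the 285 genes higher than in the stage before, 100 were also higher than in the stage after, where 32.2% of all genes were higher and 32.8% lower. The gated sums entered both contrasts, so the overlap is not independent of them. Tested in both contrasts were 9753 genes, and 22 of the 100 passed in both with few somatic UMIs as well. Of these, 3 (*Rec8*, *Sohlh2* and *Lgalsl*) passed in every one of the 26 fits run over both contrasts. *Lgalsl*, which encodes a galectin-like protein, was at 9.42, 9.72, 13.7 and 17.6 CPM, then 46.9, 18.5, 28.3 and 37.5 CPM, then 10.1, 5.11, 6.96 and 6.69 CPM. *Mageb4*, an X-linked germ cell gene, was at 75.4, 35.2, 49.98 and 36.8 CPM, then 124, 82.9, 97.9 and 81.3 CPM, then 53.2, 48.3, 54.8 and 48.0 CPM. The gated values of both genes lay above every value of the other gates. *Sall4*, a transcription factor of undifferentiated and differentiating spermatogonia, was among the 22, with log2 fold changes of 0.81 ± 0.19 and 2.36 ± 0.15. These genes were singled out after their values were seen. A further 134 genes rose from the stage before to the gated cells and again to the stage after, *Sycp3*, *Tex12*, *Ly6k* and *Tex101* among them, and 26 of the 134 did so with few somatic UMIs as well. Lower than in both neighbours were 262 genes, 7 of them also with few somatic UMIs.

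The CNCCTCAG motif was in the promoter of 12.3% of the genes higher in the gated cells than in the stage before (29 of 235 matched by symbol), beside 8.84% of all genes tested there. With few somatic UMIs it was in 8.11% (6 of 74), beside 9.04%. Among genes lower in the gated cells than in leptotene/zygotene cells it was in 11.9% (341 of 2854), and among those higher in 7.56% (211 of 2791), beside 8.9% of all tested. The AGGTCA half-site was in 11.5% and 12.6% of the last 2 groups, beside 12.1%. It was in 13.2% of the genes higher than in the stage before (31 of 235), beside 11.7%, and in 16.2% with few somatic UMIs (12 of 74), beside 11.8%. These shares describe letters in the promoters and were not tested.

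The gated cells were not uniform. Members with 2, 3, 4 and 5 or 6 of the entry markers numbered 252, 237, 245 and 292. Control 2 held only 13 of the 252, with 135222 UMIs in sum, so low CPM values in the split rest on few UMIs. The split uses the rule's own markers and was chosen after values were seen, so it is a description. The median UMI count of members with 2 entry markers was not lower than that of members with 5 or 6 in any library (11541, 10725, 7872 and 11140 against 9659, 9463, 7348 and 7310). Sertoli markers summed to 1234, 258.8, 2769 and 374.2 CPM in the former and 1690, 273.4, 1985 and 353.5 CPM in the latter. Stromal markers summed to 890.6, 362.4, 128.4 and 482.5 CPM and to 225.3, 447.8, 68.5 and 268.9 CPM. Members with only 2 markers were 30.9%, 8.33%, 30.2% and 16.4% of the gated cells, so that the libraries numbered 1 held more of them.

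*Ccnd2* was at 176, 155, 230 and 190 CPM in members with 2 entry markers and at 15.7, 4.71, 12.8 and 6.51 CPM in those with 5 or 6, a difference of 18.9 times between the means. *Lin28a*, an RNA-binding protein gene of undifferentiated spermatogonia, was at 51.4, 74.0, 35.97 and 65.7 CPM and at 2.62, 4.71, 4.28 and 2.17 CPM. *Sall4* was at 128, 81.3, 128 and 95.2 CPM and at 28.8, 17.3, 17.1 and 2.17 CPM. *Uchl1*, *Dnmt3b* and *Sohlh1* were also lower with 5 or 6 markers in 4 of 4 libraries, by 2.85 to 4.66 times. In each of these genes the ranges of the 2 sets of cells did not overlap.

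In the opposite direction, *Gm4969* was at 5.06, 0, 15.4 and 6.57 CPM in members with 2 entry markers and at 39.3, 34.6, 42.8 and 43.4 CPM in those with 5 or 6. *Rec8* was at 11.8, 14.8, 28.3 and 36.1 CPM and at 66.8, 94.3, 54.2 and 99.8 CPM. *Prdm9*, which encodes the histone methyltransferase that places recombination hotspots, was at 9.28, 14.8, 11.6 and 9.85 CPM and at 48.5, 62.8, 82.8 and 47.7 CPM. *Hist1h2aa* was 11.6 times and *Hist1h1e* 8.53 times as high in the second set. *Hist1h2aa* is a neighbour and partner of the gate gene *Hist1h2ba* in the histone cluster. *Top2a* and *Mki67* were each higher in 4 of 4 libraries, by 2.62 and 2.61 times.

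*Stra8*, of which every member had at least 2 UMIs by the rule, was at 622, 436, 548 and 528 CPM in members with 2 entry markers and at 614, 581, 605 and 631 CPM in those with 5 or 6.

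**Figure D3:**
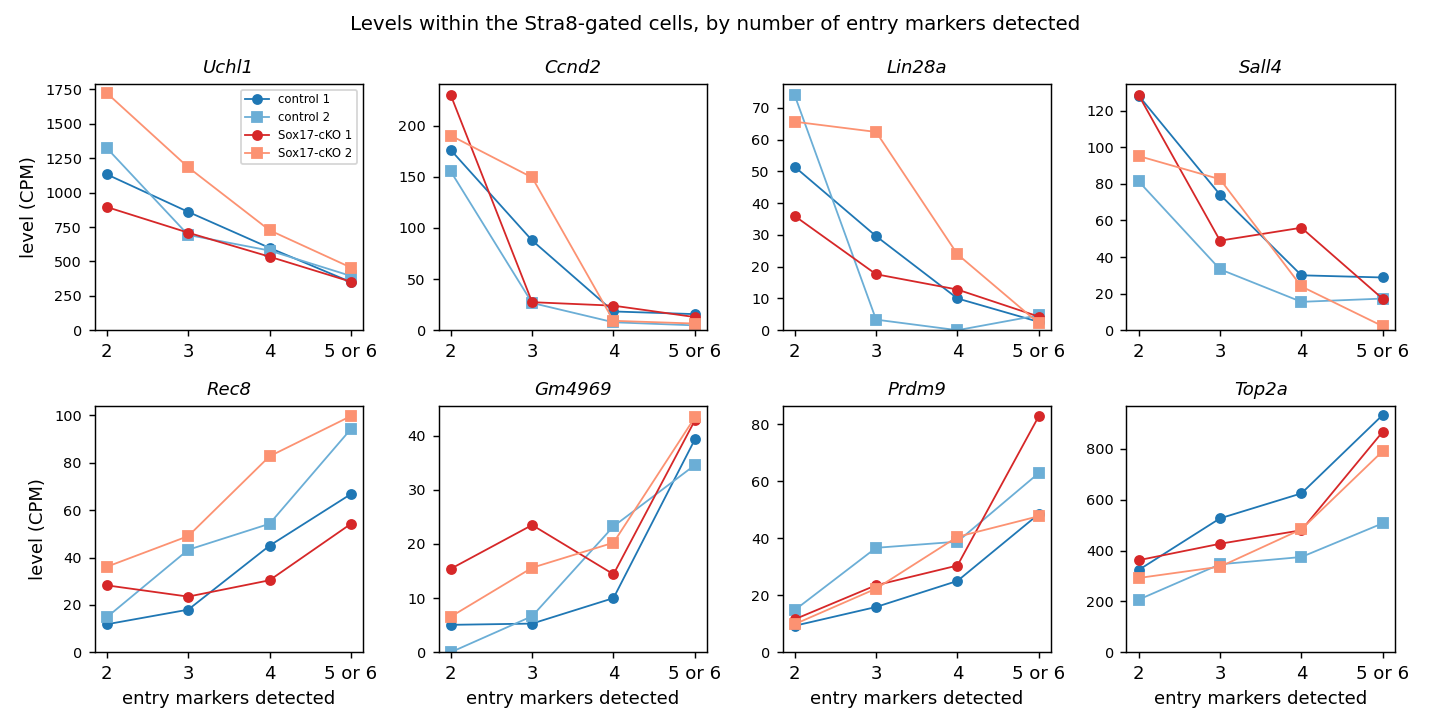
Level in CPM (y axis, linear, from 0) of 8 genes in *Stra8*-gated cells with 2, 3, 4 and 5 or 6 entry markers detected (x axis), with 1 line per library. *Uchl1*, *Ccnd2*, *Lin28a* and *Sall4* were lower and *Rec8*, *Gm4969*, *Prdm9* and *Top2a* higher with 5 or 6 markers than with 2 in all 4 libraries.

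By list, all 7 axis genes with a mean of at least 20 CPM, 5 of 6 synaptonemal complex genes and 9 of 14 recombination genes were higher with 5 or 6 markers in 4 of 4 libraries, and 0 of any of these lists were lower. Over all 6563 genes at that level, 33.2% were higher and 17.4% lower in 4 of 4 libraries. Replication genes were mixed, with 22 of 45 higher and 6 lower. *Rrm2* (ribonucleotide reductase, 3.57 times) and *Tk1* (thymidine kinase, 2.25 times) were higher, whereas the helicase genes *Mcm2* and *Mcm7* were lower in 4 of 4 libraries. Of the mitosis genes 13 of 24 were higher and 1 lower. Of 16 spermatogonial genes, 3 were higher and 7 lower. Of 10 glycolysis genes 7 were lower and 1 higher, and of 14 piRNA pathway genes 7 were lower and 0 higher. *Pgam1* and *Eno1*, which encode glycolytic enzymes, were 3.37 and 3.44 times as high in members with 2 markers.

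The *Sox17*-cKO libraries were then compared with the controls, which asks whether the *Stra8*-gated germ cells differ with loss of *Sox17* in the somatic lineage. Of the germ barcodes (3644, 1513, 3400 and 1863 per library), the gated cells were 9.60%, 10.3%, 9.74% and 10.1%, with exact binomial (Clopper-Pearson) intervals that all overlapped. These intervals cover counting error only. The mean share was 9.96% in controls and 9.94% in *Sox17*-cKO, a difference of -0.018 percentage points (exact permutation test, two-sided, p = 1). With 2 libraries against 2, no p below 0.333 can be reached. The evenness of these shares changed with thinning. Barcodes with at least 3000 UMIs were thinned to 3000, and the germ and marker criteria were applied again, with the gene limits on unthinned counts. This left 2622, 1255, 2126 and 1296 germ barcodes. The gated cells were 5.84%, 10.5%, 8.75% and 9.65% of them, and the interval of control 1 (4.97% to 6.80%) no longer overlapped the others. As a share of all retained barcodes the gated cells were 5.70%, 3.02%, 5.86% and 3.37%. The means were 4.36% and 4.61% (exact permutation test, two-sided, p = 0.667). In all retained barcodes this share was higher in the libraries numbered 1 in both groups. Within the libraries numbered 1 it was 5.70% in the control and 5.86% in the *Sox17*-cKO, and within those numbered 2 it was 3.02% and 3.37%. With few somatic UMIs the share was 11.8%, 11.7%, 11.6% and 13.3%. This limit also took somatic cells out of the retained barcodes: 1711 of 1865, 1043 of 1105, 1488 of 1771 and 1060 of 1169 were then germ barcodes. The share is then close to that of germ barcodes and is no check of the split by replicate number. Before the limit, germ barcodes were 3644 of 6135, 1513 of 5174, 3400 of 5652 and 1863 of 5606 retained barcodes. After thinning, the share of the retained barcodes with at least 3000 UMIs was 3.03%, 2.81%, 4.72% and 2.52%, so that the split was smaller between the controls.

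**Figure D4:**
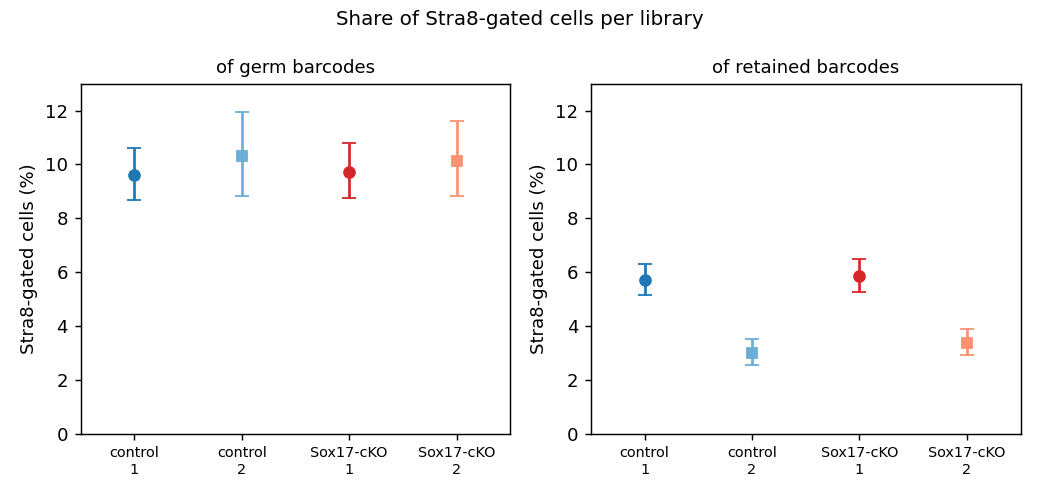
*Stra8*-gated cells as a percent of germ barcodes (left) and of retained barcodes (right) in each library (x axis), with exact 95% binomial intervals as bars. Shares of germ barcodes lay between 9.60% and 10.3%, and shares of retained barcodes were 5.70% and 5.86% in the libraries numbered 1 and 3.02% and 3.37% in those numbered 2.

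Within the gated cells, 0 of 10377 genes passed the threshold between genotypes (0%) in edgeR, and 0 in DESeq2. An unadjusted p under 0.05 was found for 22 genes in edgeR and 10 in DESeq2. An exact test with no true difference would give a share of 0.05 of the genes, so both fits were conservative. Neither included the replicate number, and control 2 and *Sox17*-cKO 2 deviated together from their group means (r = 0.522). The count of 0 therefore does not show that the genotypes were alike. The count was not 0 in every fit: leaving out control 1 gave 54 genes, 52 of them higher in *Sox17*-cKO, and leaving out control 2, *Sox17*-cKO 1 or *Sox17*-cKO 2 gave 1, 9 and 13. A fit with 1 library in a group assumes that this library varies like the others. With the replicate number, which coincided with the Cell Ranger version, as a block, 10 genes passed (0.0964%), 4 higher (0.0385%) and 6 lower (0.0578%) in *Sox17*-cKO. The lower ones were *Hist1h2ap*, *Gm10076* and 4 matrix genes (*Col1a1*, *Col1a2*, *Col3a1* and *Eln*), and the higher ones were *Tsx*, *Gm48168*, *AC140186.1* and *Mirt1*. *Hist1h2ap*, a histone H2A gene, was at 721 and 585 CPM in controls and at 427 and 111.5 CPM in *Sox17*-cKO (log2 fold change -1.54 ± 0.20 with the block, edgeR adjusted p = 6.9e-10, and -1.31 ± 0.51 without it). With the block little is left to measure the spread within a gene, so these standard errors and p rest largely on dispersion shared over genes. The pairs also differed: *Hist1h2ap* went from 721 to 427 CPM in the libraries numbered 1 and from 585 to 111.5 CPM in those numbered 2. It was lowest in *Sox17*-cKO 2 in the other gates too: 664, 990, 451 and 104 CPM in late differentiating spermatogonia and 310, 477, 259 and 58.5 CPM in leptotene/zygotene cells. *Hist1h2ap* and the other genes not named below were named after their values were seen. Without the block, the standard errors were wide. *Gm4969* had a log2 fold change of 0.40 ± 0.38, *Rec8* of 0.14 ± 0.47, *Sycp3* of 0.08 ± 0.26, *Sohlh2* of 0.0031 ± 0.32 and *Crabp1* of 0.34 ± 0.36, with an edgeR adjusted p of 0.99997 for each. *Gm4969* was lowest in control 1 (13.4 CPM) and close in the other 3 libraries (22.6 to 24.1 CPM). The median log2 fold change was 0.16 over 12 meiotic entry regulators (10 above 0), 0.095 over 8 axis genes (8 above 0) and -0.0096 over 21 recombination genes (10 above 0), beside 0.0092 over all genes tested. It was -0.12 over 48 replication genes, with 8 above 0, and 0.34 over 7 pachytene spermatocyte genes, with 6 above 0.

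The genes with the smallest unadjusted p are given as values. None passed in the fit described first, and *AC140186.1*, *Eln*, *Col3a1* and *Col1a2* passed with the block, with edgeR adjusted p from 5.0e-08 to 0.021. *Col3a1* and *Col1a2* also passed without a filter on low counts and without *Sox17*-cKO 2. Those higher in *Sox17*-cKO were *AC140186.1*, *Ghdc*, *Maged2*, *Satb1* and *Pik3cd*. *Maged2* was at 29.5 and 22.6 CPM in controls and at 51.6 and 46.1 CPM in *Sox17*-cKO. Those lower were *Eln*, *Gm11808*, *St7l*, *Col3a1* and *Col1a2*. *Eln*, which encodes elastin, was at 36.1 and 29.5 CPM in controls and at 6.501 and 11.9 CPM in *Sox17*-cKO. *Eln*, *Col3a1* and *Col1a2* encode extracellular matrix proteins of stromal cells. The stromal markers summed to 376.3 and 392.7 CPM in the control and 86.05 and 299.2 CPM in the *Sox17*-cKO gated cells, and 7 tested stromal markers had a median log2 fold change of -1.33. The part of stromal RNA was not tested. With few somatic UMIs that median was -0.12 over 5, and *Eln* went from -1.87 ± 0.42 to -0.76 ± 0.83. In the other gates the stromal sums were higher in *Sox17*-cKO within each replicate number. They were 1511 and 1302 CPM in control and 1812 and 3048 CPM in *Sox17*-cKO late differentiating spermatogonia. In leptotene/zygotene cells they were 239.7 and 524.2 CPM in control and 380.1 and 938.3 CPM in *Sox17*-cKO.

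**Figure D5:**
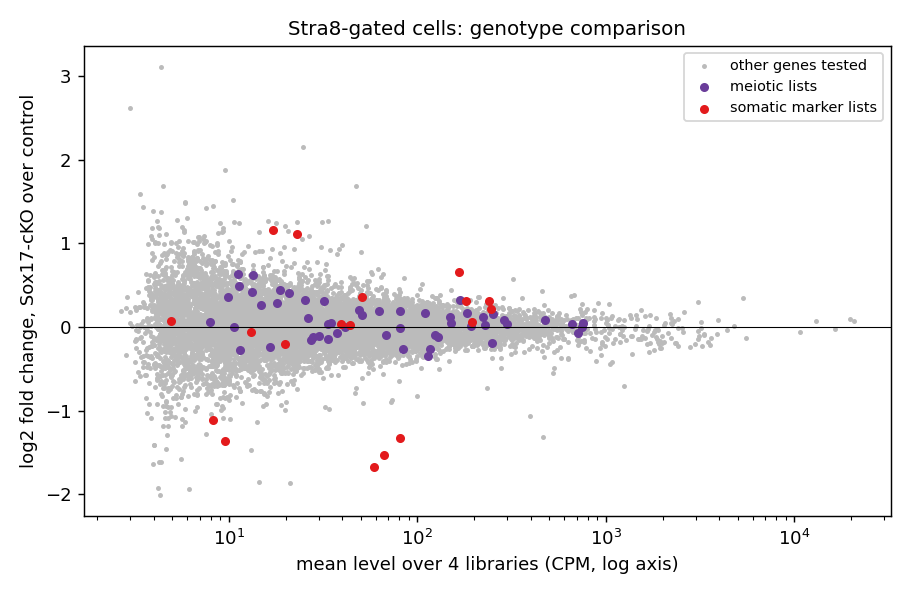
Log2 fold change of *Sox17*-cKO over control in *Stra8*-gated cells (y axis) against the mean level over 4 libraries (x axis, CPM, log scale). All 10377 genes tested by edgeR are shown, of which 0 passed the threshold in this fit without the replicate block. Genes of 5 meiotic lists (purple) lie on both sides of 0, with all 8 axis genes above it, and somatic markers (red) lie on both sides of it, with *Col3a1* (-1.54) and *Col1a2* (-1.67) among the lowest.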

How the data were processed

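Proximal testes of P14 mice were dissociated, captured with a 10x Genomics 3' kit and sequenced in 4 libraries (2 per genotype, 3 pups and 5000 targeted cells each). The authors deposited raw UMI counts per gene and barcode, made with Cell Ranger (6.0.2 or 6.1.2) against mm10. The methods name kit version 3.1 chemistry and the records an earlier version. The study's limit on mitochondrial UMIs was not applied, because few cells pass it, and no doublet caller was run, so doublets were limited only by the upper gene limit.

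Members, gates and gene lists were chosen with earlier results of these data known. UMIs were summed per library and gate, so libraries and not cells were the replicates. Since pups are pooled, the p-values measure at most the spread between 2 pools per genotype. With the replicate block they rest largely on dispersion shared over genes. Sums were tested with edgeR 4.0.16 in R 4.3.3 (TMM, filterByExpr, quasi-likelihood F test, two-sided, Benjamini-Hochberg over all genes tested). Stage contrasts had the library as a block. CPM use all UMIs of the gate, whereas fold changes use TMM. DESeq2 1.42.0, other filters and gates, and each library left out were alternatives. The edgeR steps were tested on simulated data. Shares were computed with Python 3.11.15 and SciPy 1.17.1. Of 31053 gene identifiers, 99.6% matched GENCODE vM21 (GRCm38), which served for exon positions. Promoters are from RefSeq.

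Genes named were the gate genes, up to 10 per direction and stage contrast with the smallest p past the threshold and 4 of 4 libraries in agreement, up to 4 per direction and list, any member of the retinoic acid and meiotic entry lists, and the 5 smallest p per direction between genotypes. Others are marked as chosen after their values were seen, as are the genes of the split by entry markers. Some results are not reported here.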

Additional observations from a re-analysis of the deposited data

How the results depend on the processing

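Between genotypes, 0 genes passed in all cells and under DESeq2, a limit of 10% mitochondrial UMIs, at least 2000 genes, at most 1 later marker and under 10 somatic UMIs. No filter on low counts gave 6, and leaving out one library 1 to 54, the most without control 1. The replicate number as a block gave 10. Control 2 and *Sox17*-cKO 2 deviated together from their group means (r = 0.522 over 10377 genes). The number coincides with the Cell Ranger version, so the paired libraries share a processing version, and the records of each pair were numbered together.

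Against late differentiating spermatogonia, 1187 genes became 379 below 10% mitochondrial UMIs, 672 with DESeq2, 226 with 2 UMIs of *Dmrtb1* and *Esx1*, 2150 without a filter, 283 without the library block, 149 with few somatic UMIs and 571 to 1145 with a library left out, the lowest without *Sox17*-cKO 1. Higher calls, 285 of 1187, were 134 of 226 with 2 UMIs of the marker genes and 90 of 149 with few somatic UMIs, but 90 of 672 with DESeq2, 10 of 283 without the block and 49 of 571 without *Sox17*-cKO 1. The cause was not tested. Against leptotene/zygotene cells, 7156 became 5100 to 7802.

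The genotype difference in the share of retained barcodes (0.254 points) was -0.397 below 10% mitochondrial UMIs and -1.09 to 1.60 with a library left out. That in the share of germ barcodes (-0.018 points) was 0.450 with at most 1 later marker, 0.576 without the gene limit, 1.60 with few somatic UMIs, 1.02 after thinning to 3000 UMIs, -1.36 below 10% mitochondrial UMIs, -0.972 with 1 *Stra8* UMI and -0.371 to 0.335 with a library left out.

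Of 79 genes followed in the first stage contrast 68 lost the call in at least 1 alternative, and 40 of 141 in the second. Direction turned with few somatic UMIs for *Syne2* (0.57), *Pkm* (0.47) and *Aldoa* (0.49) in the first and *Aldh1a1* (0.062) and *Col1a2* (0.023) in the second, and with 2 UMIs of *Dmrtb1* and *Esx1* for *Meig1* (0.39), *Pkm* (0.34) and *Aldoa* (0.23).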
